A study of Drosophila melanogaster with 14 samples.

Results

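The peptide hormones described here were the products of 10 Drosophila melanogaster genes with known parts in the circadian clock, feeding, water balance and stress: Pdf, Dh31, sNPF, NPF, Ilp2, Dh44, Lk, Crz, CCAP and ETH. They were chosen by name, as all probe sets whose only listed gene was 1 of these symbols. The rule used no measured value, but earlier results of these data were known when it was made. Each gene had 1 probe set, so the members were 10 of the 14010 probe sets on the array and 10 of the 10844 genes that the platform's table names singly. RNA was measured on 14 single-colour Affymetrix arrays in 3 groups. The 6 samples called CS heads below were whole heads of the wild-type strain Canton-S. The 4 samples called Rh1 heads were whole heads of transgenic flies of the genotype that their descriptions write as Rh1-GAL4/P{UAS-hPABP-FLAG}. In these a poly(A)-binding protein with a FLAG tag is made under the control of the Rh1 promoter, which is on in the 6 outer photoreceptors of each eye unit (R1-R6). The 4 samples called IP held RNA that anti-FLAG beads pulled down from fixed heads of that genotype, and the labels call them photoreceptor cells R1-R6. The labels write the transgene both as dPABP and as hPABP, and they give neither age nor sex for any group. No precipitate from flies without the tag was among the arrays used here. Every sample pooled the heads of many flies, and the labels do not say that samples came from separate fly cultures, so the p-values reflect only sample-to-sample spread, part or all of which may be technical.

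Peptide hormones are made as larger precursors, packed into dense-core vesicles, cut and amidated there, and released to act mostly on G protein-coupled receptors, while insulin-like peptides act on a receptor tyrosine kinase. In the fly head most of them come from small, fixed sets of brain neurons and neurosecretory cells. Photoreceptors, by contrast, signal with histamine. In RNA from whole heads or from a precipitate, fewer cells of a type and less RNA per cell cannot be told apart.

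Before the members, the groups were checked with genes that mark cell types. The level of trp, a light-activated channel of photoreceptors, as scaled array signal was 6507 ± 2610 in IP and 1112 ± 61.2 in Rh1 heads (SD, n = 4 each). Gad1, the GABA-synthesizing enzyme of other neurons, had 106.7 ± 1.93 and 1282 ± 60.2, and the muscle gene Prm had 365.8 ± 33.6 and 3536 ± 140, in the same order. Of 10 photoreceptor markers 9 rose in IP against Rh1 heads, while all 7 tested markers of other neurons fell, as did 6 of 7 of muscle. Of all 9776 tested probe sets 21.8% were called higher and 25.6% lower in that comparison. Against CS heads 4 of the 10 photoreceptor markers were higher in IP (beside 26.5% of all tested probe sets) and 3 were lower (beside 34.4%). Their median log2 difference from CS heads was -0.15, and that of the 7 tested other-neuron markers was -1.22. In CS heads the trp signal was 6431 ± 394 (SD, n = 6). The summed signal of the photoreceptor markers ran from 35421 to 63303 over IP arrays and from 19800 to 20509 over Rh1 heads. That of the other-neuron markers ran from 1910 to 2977 over IP arrays and from 6027 to 6856 over Rh1 heads, and no marker was listed at 0 on any array. The IP arrays were less alike than the head arrays: the median SD of log2 values was 0.222 in IP, 0.098 in Rh1 heads and 0.096 in CS heads. On IP replicates 2 and 4 the 5′ over 3′ signal ratio of the control transcript eIF-4a was 0.0284 and 0.0432, against 0.531 and 0.209 on replicates 1 and 3 and 0.444 to 0.678 on head arrays. For the other control transcripts all 4 IP arrays were below every head array. Their highest IP ratios, both on replicate 1, were 0.202 for GAPDH, against 0.291 to 0.541 on head arrays, and 0.135 for ACTIN, against 0.317 to 0.513.

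The members fell into separate patterns over the groups. The hormone transcripts of Dh31, sNPF, Ilp2, NPF and Dh44 were lower in IP than in Rh1 heads, by between 6.59-fold and 1.75-fold in mean signal. Those of Pdf, Lk, Crz and ETH did not pass the test in that comparison, and none of the members rose. Between the whole heads of the 2 genotypes the members split: Crz, Pdf, Lk and ETH were lower in Rh1 heads, and NPF, sNPF, Dh44 and Dh31 were higher. Each group of 4 or 6 arrays was compared on the log2(signal + 32) scale with limma, and a gene counted as called at a limma adjusted p under 0.05. CCAP was too dim to be tested.

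**Figure D1:**
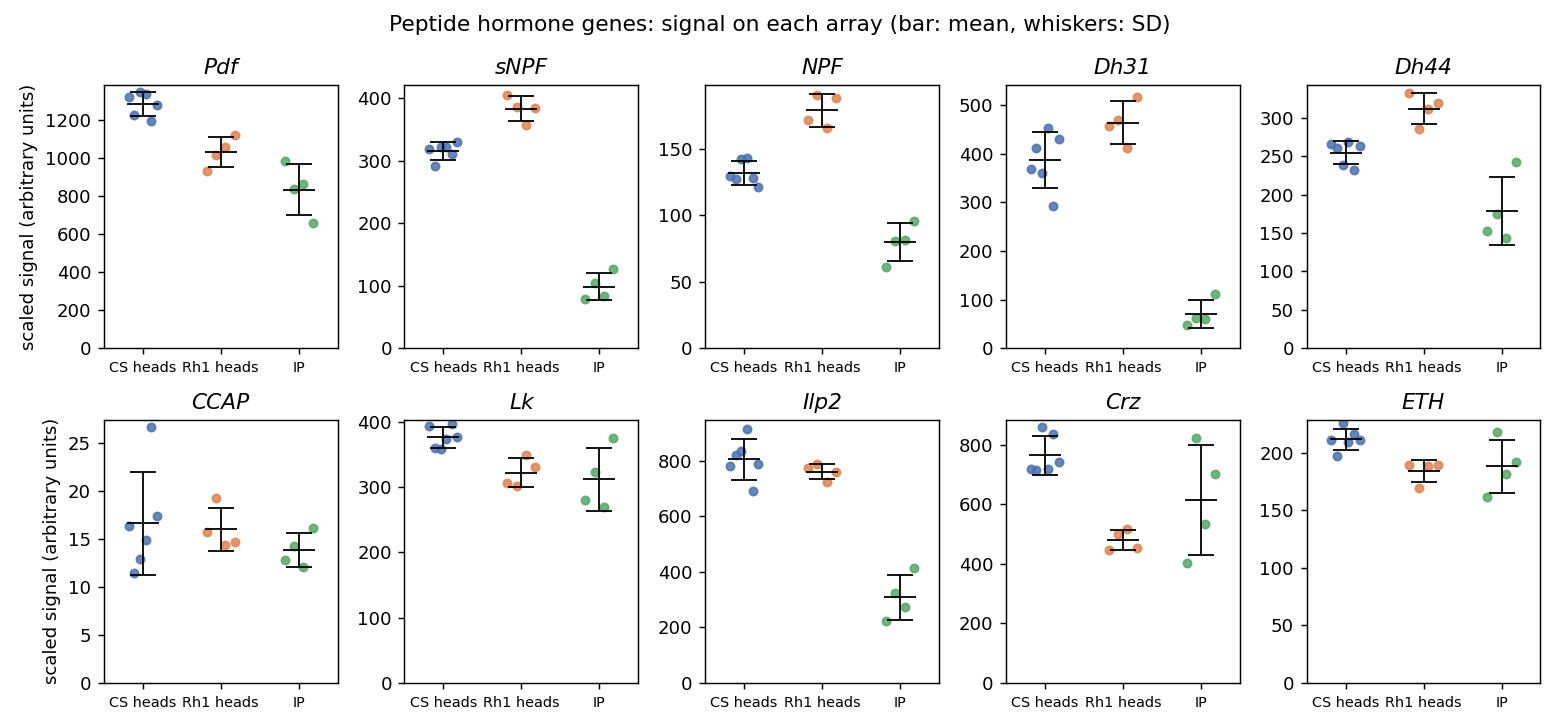
Scaled signal (arbitrary units, linear axis from 0) of each of the 10 peptide hormone genes on every array, by group (CS heads, Rh1 heads, IP), with a point for each array, a bar for the group mean and whiskers for the SD. The Dh31, sNPF and Ilp2 points of IP lie below all points of both head groups, while those of ETH, Lk and Crz overlap the Rh1 heads.

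Among the clock peptides, Pdf encodes pigment-dispersing factor, which clock neurons of the lateral brain release to keep the clock network in step. Its signal ran from 1195 to 1349 in CS heads, with a median of 1300. In Rh1 heads it was 929.4, 1016, 1055 and 1119, and in IP it was 983.4, 834.4, 860.8 and 656.8 for replicates 1 to 4. Every CS array was above every array of the other groups, and IP replicate 1 lay within the range of Rh1 heads. Against CS heads Pdf fell by 0.31 on the log2 scale in Rh1 heads (SE 0.06, limma adjusted p = 0.00108) and by 0.62 in IP (SE 0.11, limma adjusted p = 0.000332). The difference of IP from Rh1 heads was -0.30 (SE 0.13, limma adjusted p = 0.0854), which did not pass. Without IP replicate 1, the array with the highest Pdf signal of its group, it was -0.39 and passed (limma adjusted p = 0.0310).

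Dh31 encodes a calcitonin-like diuretic hormone that is also made by dorsal clock neurons. In CS heads its signal ran from 293.3 to 454.3 (median 391), and it was 456.9, 470.6, 411.2 and 518.2 in Rh1 heads. In IP it was 46.84, 62.08, 60.33 and 112.4. The highest IP array had less than the lowest head array, and the IP arrays themselves spread widely, with replicate 4 well above the others. The mean level was 6.59-fold lower in IP than in Rh1 heads (70.41 ± 28.8 against 464.2 ± 44.1, SD, n = 4 each), a log2 difference of -2.31 (SE 0.17, limma adjusted p = 5.6e-06). Dh31 ranked 133 of the 9776 probe sets tested, counted from the lowest value. The whole heads differed far less: Dh31 was 0.25 higher in Rh1 heads than in CS heads on the log2 scale (SE 0.10, limma adjusted p = 0.0442), and these groups overlapped. That call was lost when Rh1 head replicate 1, 2 or 4 or CS head replicate 1, 3 or 5 was left out, with adjusted p from 0.0615 to 0.141.

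The genes of the feeding peptides, sNPF, NPF and Ilp2, were each lower in IP than in Rh1 heads, as were Dh31 and Dh44. sNPF encodes short neuropeptide F, a widespread brain peptide that promotes feeding and is made in mushroom body neurons among others. Its signal ran from 290.5 to 330.2 in CS heads (median 319.9), was 404.5, 386, 357.1 and 384.8 in Rh1 heads, and was 79.31, 104.7, 83.31 and 126.5 in IP. The 3 groups did not overlap, with Rh1 heads highest and IP lowest. Against Rh1 heads sNPF in IP was 3.89-fold lower in mean signal (log2 difference -1.68, SE 0.12, limma adjusted p = 4.22e-06). In Rh1 heads it was higher than in CS heads by 0.26 on the log2 scale (SE 0.05, limma adjusted p = 0.000969).

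NPF encodes neuropeptide F, the fly relative of vertebrate neuropeptide Y, with parts in feeding and reward. In CS heads its signal was 121.1 to 143.3 with a median of 129.1, in Rh1 heads 171.8, 191.2, 165.6 and 188.7, and in IP 61.37, 80.69, 81.69 and 95.84. The order of the groups was that of sNPF, again without overlap. NPF was 0.37 higher in Rh1 heads than in CS heads on the log2 scale (SE 0.06, limma adjusted p = 0.000127). From Rh1 heads to IP it fell by 0.92 (SE 0.10, limma adjusted p = 6.74e-05). The pseudocount of 32 is not small beside these signals, so the log2 values understate the change, which was 2.24-fold in mean signal.

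Ilp2 encodes an insulin-like peptide of the neurosecretory insulin-producing cells of the brain, which couples nutrition to growth and metabolism. The CS heads gave signals of 691 to 912.4 (median 805.1), and it was 772.5, 787.2, 722.2 and 759.8 in Rh1 heads. The IP arrays gave 223.1, 322.1, 272.1 and 413. All Rh1 head arrays lay inside the CS range, and all IP arrays lay below both. Ilp2 fell by 1.25 from Rh1 heads to IP on the log2 scale (SE 0.16, limma adjusted p = 0.000152), a 2.47-fold lower mean signal. Ilp2 was the tested member that did not pass between the head groups, at -0.07 (95% interval -0.22 to 0.08, limma adjusted p = 0.393).

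Among the peptides of water balance, Dh44, like the diuretic hormone Dh31, was lower in IP than in Rh1 heads, and Lk did not pass. Dh44 encodes a diuretic hormone related to vertebrate corticotropin-releasing factor, made by median neurosecretory cells. Its signal ran from 232.2 to 268.5 in CS heads (median 262.7), was 333.4, 285.5, 311.7 and 319.3 in Rh1 heads, and was 153.1, 175.5, 144.3 and 242.6 in IP. IP replicate 4 reached into the CS range, and no IP array reached the lowest Rh1 head array. Dh44 was lower in IP than in Rh1 heads by 1.75-fold in mean signal (log2 difference -0.73, SE 0.14, limma adjusted p = 0.00198). It was 0.26 higher in Rh1 heads than in CS heads on the log2 scale (SE 0.06, limma adjusted p = 0.00155).

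Lk encodes leucokinin, which stimulates fluid secretion by the Malpighian tubules. Signals of 358.2 to 396.4 were measured in CS heads (median 374.9), and it was 306.1, 301.8, 349.7 and 330 in Rh1 heads, and was 279.4, 323, 268.7 and 375.1 in IP. The Rh1 head arrays were all below the CS arrays, while the IP arrays spread from below the Rh1 heads into the CS range. Lk fell by 0.21 from CS heads to Rh1 heads on the log2 scale (SE 0.05, limma adjusted p = 0.00569). The difference of IP from Rh1 heads was -0.05 (95% interval -0.31 to 0.20, limma adjusted p = 0.737). Against CS heads the difference of IP was -0.26 (SE 0.09, limma adjusted p = 0.0241), and that call was lost without IP replicate 1 (0.0645), IP replicate 3 (0.0811) or CS head replicate 1 (0.0503).

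Crz was the member that differed most between the genotypes. It encodes corazonin, a peptide of dorsolateral brain neurons related to vertebrate gonadotropin-releasing hormone, with parts in stress and metabolism. Its signal ran from 715.1 to 861.5 in CS heads (median 730.1), was 447.3, 501.1, 518.4 and 453.8 in Rh1 heads, and was 401.8, 823.6, 534 and 702.1 in IP. The head groups lay far apart, and the IP arrays spanned from below the lowest Rh1 head array to within the CS range. Crz fell by 0.64 from CS heads to Rh1 heads on the log2 scale (SE 0.07, limma adjusted p = 6.95e-06), which ranked 207 from the lowest of the 9776 probe sets tested. In IP the difference from Rh1 heads was 0.29 (SE 0.19, 95% interval -0.14 to 0.73, limma adjusted p = 0.239).

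The 2 highest Crz signals of IP were those of replicates 2 and 4, the arrays with the lowest 5′ over 3′ ratios. This held for sNPF, Dh31, Dh44, Lk, Ilp2 and ETH too, while NPF was highest on replicates 3 and 4. The 2 lowest Pdf signals were on replicates 2 and 4. Without both arrays the differences from Rh1 heads were -2.54 for Dh31, -1.87 for sNPF, -1.51 for Ilp2, -1.03 for NPF and -0.93 for Dh44. They were -0.21 for Lk, -0.15 for Pdf and -0.09 for ETH, and no call changed. Without both arrays the Crz difference from Rh1 heads was -0.05 (limma adjusted p = 0.774), and that from CS heads moved from -0.34 (limma adjusted p = 0.0869) to -0.68 (limma adjusted p = 0.000291). Without IP replicate 1, the lowest, the difference from Rh1 heads was 0.47 and passed (limma adjusted p = 0.0248). Against CS heads it also passed without IP replicate 2 (-0.49, limma adjusted p = 0.0145) or replicate 4 (-0.42, limma adjusted p = 0.0453). The Crz value of IP thus depended on single arrays.

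**Figure D2:**
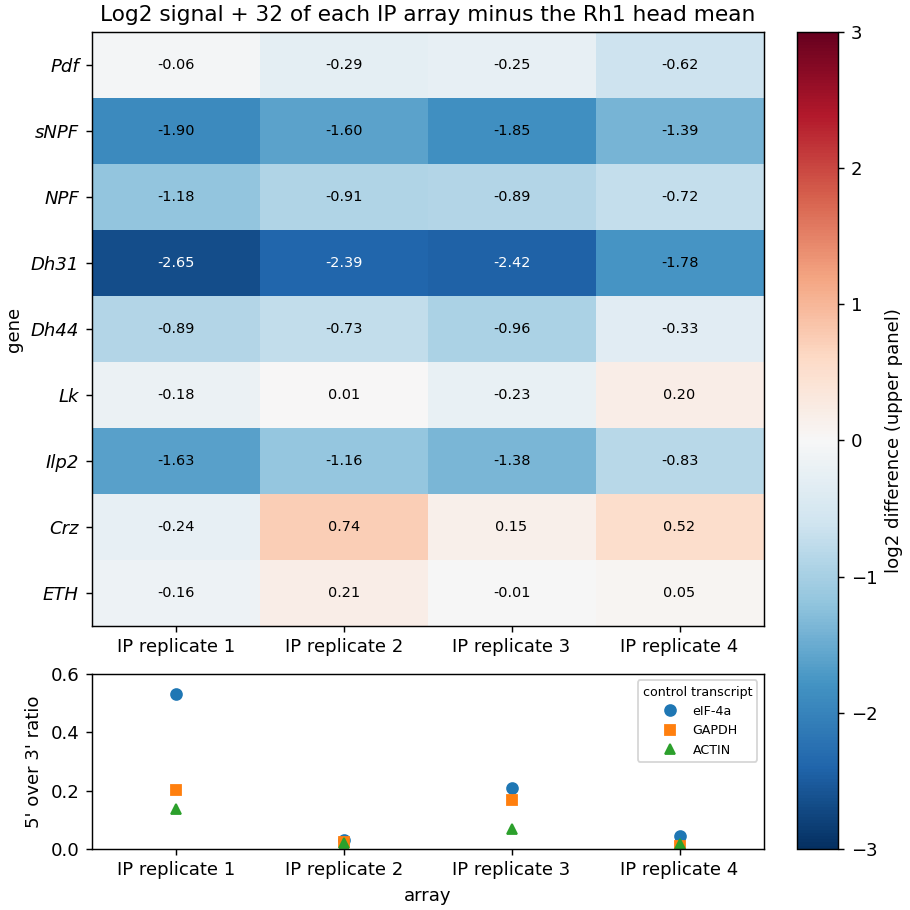
Upper panel: log2(signal + 32) of each IP array minus the Rh1 head mean for the 9 tested members, as numbers and colour. Lower panel: 5′ over 3′ signal ratio (linear axis) of 3 control transcripts on the same arrays. Dh31 ranges from -2.65 to -1.78 and Crz from -0.24 to 0.74 over the 4 arrays, and the ratios are lowest on replicates 2 and 4.

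ETH encodes ecdysis triggering hormone, known from endocrine Inka cells of the trachea that start the moulting behaviour. Across CS heads its signal spanned 197.2 to 225.5 (median 210.8), and it was 188.9, 169.2, 188.8 and 188.9 in Rh1 heads, and was 161.5, 217.6, 181.8 and 191.6 in IP. The Rh1 head arrays were all below the CS arrays, with replicate 2 below the other 3, and IP overlapped both. ETH fell by 0.17 from CS heads to Rh1 heads on the log2 scale (SE 0.05, limma adjusted p = 0.00893). The median signal of an array before scaling was 192 to 197.7 in CS heads and 194.2 to 201.8 in Rh1 heads. The value table has no detection calls, so whether the ETH signal was above background is not given. Between IP and Rh1 heads the difference of ETH was 0.02 (95% interval -0.19 to 0.23, limma adjusted p = 0.861). Against CS heads it was -0.15 (limma adjusted p = 0.101), and -0.21 without IP replicate 2 (limma adjusted p = 0.0234).

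CCAP encodes crustacean cardioactive peptide, which acts on the heart and in the ecdysis motor programme. Its signal was 11.43 to 26.62 in CS heads (median 15.61), 15.68, 19.23, 14.33 and 14.71 in Rh1 heads, and 12.79, 14.25, 12.06 and 16.14 in IP. All 3 groups overlapped, and all values were far under the signal of 110 below which probe sets were not tested. In exact two-sided permutation tests CCAP differed by -0.07 on the log2 scale between IP and Rh1 heads (p = 0.171, with 0.0286 the smallest possible) and by -0.01 between Rh1 heads and CS heads (p = 0.895, with 0.00952 the smallest possible). The lack of detection calls holds for CCAP and every other member, so whether CCAP was above background is not given.

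IP and Rh1 heads share a genotype, so comparing them asked what differed between the pulled-down RNA and the heads it came from. Of the 9 members tested, 5 were lower in IP, beside 25.6% of all 9776 tested probe sets, and 0 were higher, beside 21.8%. At an unadjusted limma p under 0.05 the counts were 6 lower and 0 higher. Here and below, the share of all tested probe sets at that unadjusted threshold is not given. The median log2 difference of the 9 was -0.73, and that of all tested probe sets was 0.01. Dh31, sNPF and NPF had mean IP signals of 70.41, 98.46 and 79.9, which are under the filter's level of 110, so they were tested because of their signal in heads. Fixation and sonication were applied to IP and not, per the labels, to whole heads, and these steps and binding to the tag cannot be told apart. The other-neuron markers moved the same way as the members that were lower, with a median of -1.18 for the 7 tested, and their part in the result was not tested.

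**Figure D3:**
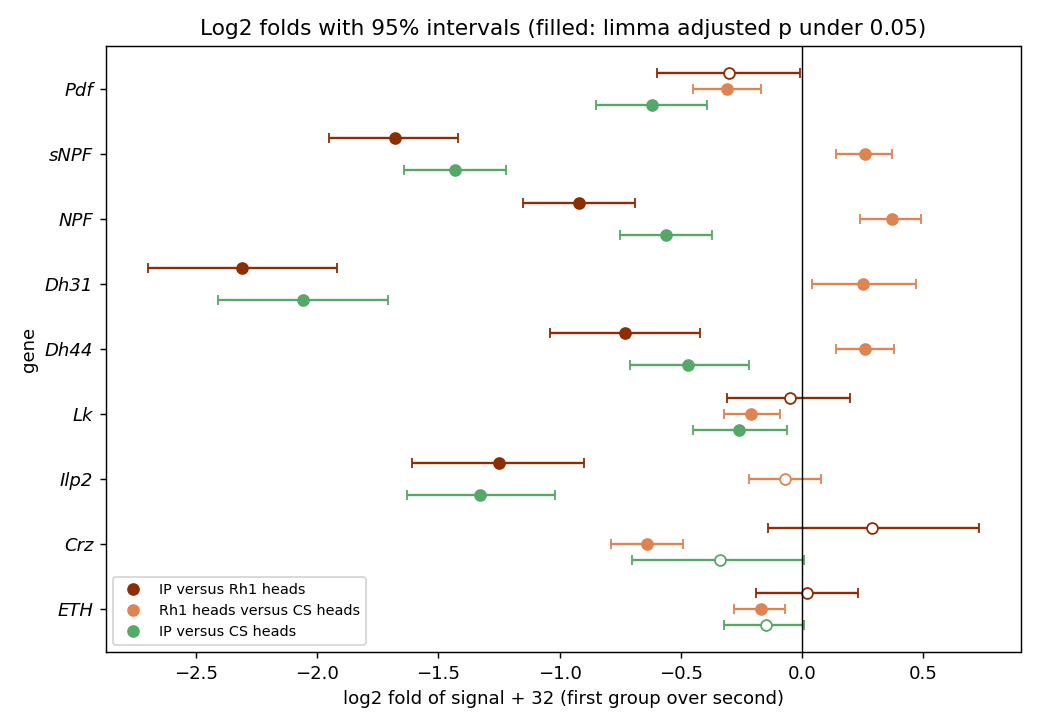
Log2 differences of signal + 32 for the 9 tested peptide hormone genes in the 3 comparisons (first group minus the other), with 95% intervals from limma as horizontal bars and filled points at a limma adjusted p under 0.05. Dh31 has the lowest value in both comparisons with IP, at -2.31 and -2.06, and Crz has the lowest between the head groups, at -0.64.

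Whole heads of the genotypes were compared to see how the members differed before any precipitation. Of the 9 tested, 4 were lower in Rh1 heads (beside 29.7% of all tested probe sets) and 4 were higher (beside 24.4%), with a median of -0.07 against -0.02 for all. With all 14 arrays in a single fit, whose spread includes that of IP, 2 were lower (Crz and Pdf) and 2 higher (NPF and sNPF). That fit called 1712 of all 9776 tested probe sets lower and 1301 higher. Among the members called in the fit of the head arrays alone, the groups overlapped for Dh31 only. The share of all tested probe sets without such overlap is not given. The sizes of the called differences were between 0.17 and 0.64 on the log2 scale. For sNPF, NPF, Dh31 and Dh44 they were smaller than the differences of IP from Rh1 heads. For Crz, Pdf, Lk and ETH they were not smaller. Photoreceptor markers moved in the same comparison: 9 of 10 were lower in Rh1 heads and 1 was higher, with a summed signal of 55376 to 60778 in CS heads and 19800 to 20509 in Rh1 heads. Hybridization controls differed too, with the control CreX-3 at 18236 to 23776 in CS heads and 11725 to 13233 in Rh1 heads. In IP it was 13518 to 16108, above every Rh1 head array as well. The titles of the CS head samples carry another code from those of the other samples, whose meaning the labels do not give. That code and genotype cannot be told apart, and the part of the markers and controls in the members' differences was not tested.

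The comparison of IP with CS heads shares its arrays with the other comparisons and is not separate evidence. There 7 of 9 members were lower (beside 34.4% of all tested probe sets) and 0 were higher (beside 26.5%), also at an unadjusted limma p under 0.05. The log2 differences were -2.06 for Dh31, -1.43 for sNPF, -1.33 for Ilp2, -0.62 for Pdf, -0.56 for NPF, -0.47 for Dh44 and -0.26 for Lk. Those of sNPF, NPF, Dh31 and Dh44 were nearer to 0 than against Rh1 heads, since these 4 were higher in Rh1 heads than in CS heads. Those of Pdf, Lk and Ilp2 were farther from 0.

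**Figure D4:**
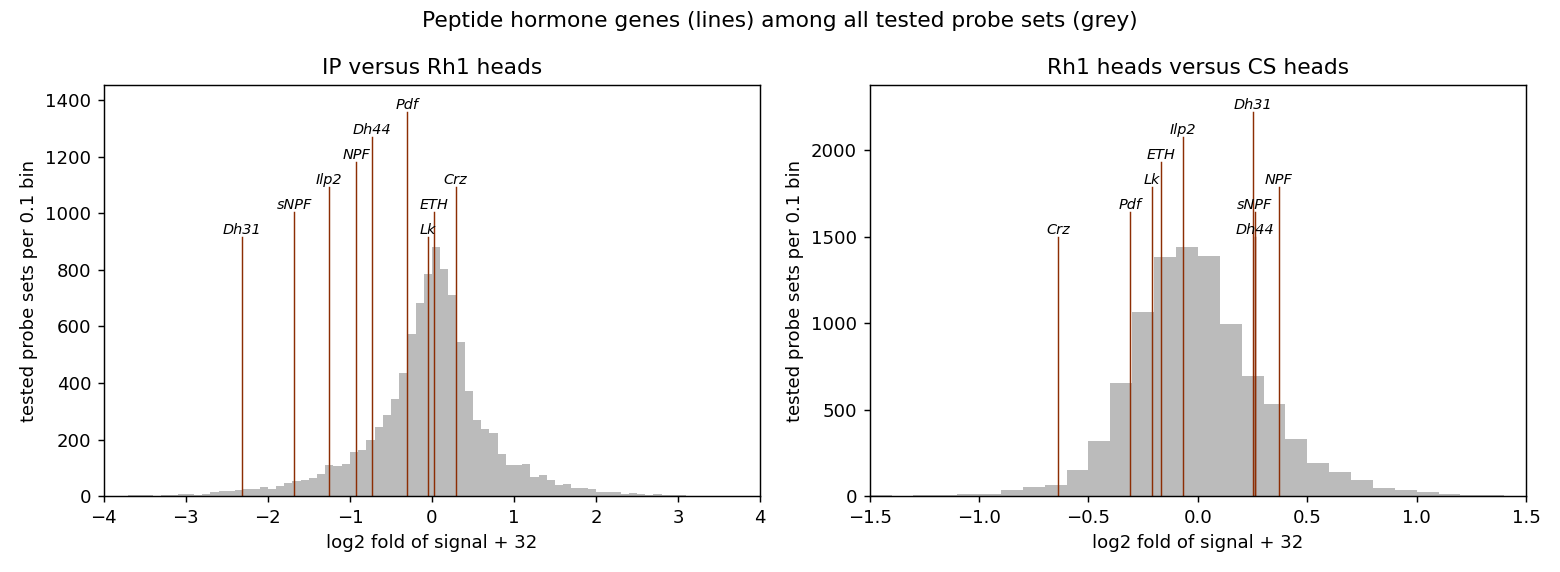
Number of tested probe sets in each 0.1 bin of log2 difference (grey), for IP minus Rh1 heads and for Rh1 heads minus CS heads, with a line for each of the 9 tested peptide hormone genes; the height of a line only places its name. In IP against Rh1 heads Dh31 and sNPF lie in the far lower tail, while ETH and Lk sit near the middle, and between the head groups Crz lies in the lower tail.

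Across the 14 arrays some members varied together on the log2 scale. The pairs among sNPF, NPF, Dh31, Dh44 and Ilp2 had Pearson r from 0.87 to 0.99. Crz correlated with ETH at 0.89 and with Lk at 0.72, and Lk with ETH at 0.73, whereas Crz with the first 5 gave values from -0.11 to 0.26. Lk with the first 5 gave 0.28 to 0.62 and ETH gave 0.11 to 0.42. Pdf lay between, from 0.29 with Crz to 0.68 with Ilp2. These values describe 14 arrays that share 3 groups and their differences in preparation, and no test was made of them. Among the other tested genes, those with the profile most like Dh31 were Tmtc2 (r = 0.997) and hig (r = 0.996). For Ilp2 they were Cyp4e2 (r = 0.991) and CG12239 (r = 0.989), for Pdf Shrm (r = 0.972) and AlaRS (r = 0.970), and for Crz sdt (r = 0.945) and CG13038 (r = 0.933), each over the same 14 arrays.

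Of 11 receptor genes of these hormones listed, 9 were measured. In IP against Rh1 heads 2 of the 9 were higher and 3 lower, near the 21.8% and 25.6% of all tested probe sets, and 4 did not pass (median -0.13). Dh44-R2, a receptor of the Dh44 peptide, had signals of 291.5, 378.7, 322.1 and 303.6 in Rh1 heads and 535.7, 716.9, 628.2 and 818.5 in IP. The groups did not overlap, and Dh44-R2 was higher in IP by 0.98 on the log2 scale (SE 0.14, limma adjusted p = 0.000328), while the transcript of its ligand was lower. Between the head groups the direction was opposite, with Dh44-R2 lower in Rh1 heads by 1.58-fold in mean signal (log2 difference -0.60, limma adjusted p = 0.000208). A second probe set of Dh44-R2 was too dim to be tested, so these values rest on 1 probe set.

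NPFR, the receptor of NPF, was 0.52 higher in IP than in Rh1 heads on the log2 scale (SE 0.16, limma adjusted p = 0.0272). Dh31-R, the Dh31 receptor, had signals of 762.5, 592.7, 876.2 and 829.6 in Rh1 heads and 436 to 477 in CS heads. No array of these groups overlapped, and the difference was 0.70 (SE 0.09, limma adjusted p = 1.87e-05). In IP Dh31-R was lower than in Rh1 heads by 0.50 (limma adjusted p = 0.0122). A second probe set of Dh31-R gave 0.01 between the head groups and 0.09 in IP against Rh1 heads and passed in neither, so the probe sets of this gene disagreed.

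InR, the insulin receptor, and Pdfr, the Pdf receptor, were lower in IP than in Rh1 heads, with log2 differences of -0.46 and -0.44. Pdfr was higher in Rh1 heads than in CS heads by 0.22, and sNPF-R was lower (log2 difference -0.33), also by its second probe set (-0.36). The receptors sNPF-R (-0.18), Dh44-R1 (-0.13), CCAP-R (0.00) and Lkr, the leucokinin receptor (0.10), did not pass in IP against Rh1 heads. A second probe set of CCAP-R was lower in Rh1 heads than in CS heads (-0.40, limma adjusted p = 0.000121), while the brighter gave 0.03. Against CS heads 3 of the 9 receptors were higher in IP and 3 lower, near the 26.5% and 34.4% of all tested probe sets.

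Of 11 genes for the processing and storage of peptides, 9 were measured. In IP against Rh1 heads 1 was higher (beside 21.8% of all tested probe sets), 2 were lower (beside 25.6%) and 6 were not called, and the median of the 9 was -0.32. IA-2, a membrane protein of dense-core vesicles, had signals of 1065, 871.3, 895.1 and 958.3 in Rh1 heads, 278.6, 267.8, 250.8 and 277.9 in IP, and 339.7 to 609.5 in CS heads. Rh1 heads were above every other array, and IA-2 was lower in IP (log2 difference -1.70, SE 0.09, limma adjusted p = 1.01e-06) and 0.99 higher in Rh1 heads than in CS heads (SE 0.13, limma adjusted p = 3.62e-05). Pal2, of the amidation pathway, was lower in IP (-1.14, limma adjusted p = 0.000916), and dimm, a transcription factor of peptidergic cells, was higher (0.26, limma adjusted p = 0.0317).

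The convertase gene amon and the gene of its helper 7B2 were named after their values were seen. In IP against Rh1 heads amon, whose enzyme cuts many precursors, had -0.01 with a wide interval of -0.59 to 0.57. For 7B2 the values were -0.44 by its brighter probe set (limma adjusted p = 0.345) and 0.36 by the other (limma adjusted p = 0.0434). The amidating enzyme gene Phm was 0.28 in IP against Rh1 heads and did not pass, and was 0.40 higher in Rh1 heads than in CS heads (limma adjusted p = 0.00992). Fur2 (0.38) and svr (0.20), a carboxypeptidase gene, were also higher in Rh1 heads, and 0 of the 9 were lower there (beside 29.7% of all tested probe sets), also at an unadjusted limma p under 0.05. In IP against Rh1 heads svr gave -0.32 by its brighter probe set (limma adjusted p = 0.0787), which did not pass, and -0.71 by the other, which did (limma adjusted p = 0.000246). Against CS heads Phm (0.68) and Pal1 (0.58) were higher in IP, and Pal2 (-1.05) and IA-2 (-0.71) were lower. The Pal1 signals of IP replicates 1 to 4 were 234.8, 346.7, 242.7 and 573.6, and replicate 1 lay within the CS range of 162.8 to 238. The highest were those of replicates 2 and 4, the arrays with the lowest 5′ over 3′ ratios.

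Of 33 other peptide precursor genes listed, 20 were measured and 16 tested. In IP against Rh1 heads 11 were lower (beside 25.6% of all tested probe sets) and 0 higher (beside 21.8%), also at an unadjusted limma p under 0.05, with a median of -0.74. Of the 11, CCHa2 and Mip, the latter named after its value was seen, had mean IP signals of 84.75 and 72.57, under the filter's level of 110, and were tested because of their signal in heads. The largest differences among those called were -2.65 for Ms, the myosuppressin gene, -2.44 for CCHa2, -2.13 for Nplp2 and -2.02 for AstC, an allatostatin gene. The 5 that did not pass, named after their values were seen, were FMRFa (-0.05), Akh, the adipokinetic hormone gene (-0.06), Capa (0.07), Ilp8 (0.11) and Eh, the eclosion hormone gene (0.12). In Rh1 heads against CS heads 7 of the 16 were higher (beside 24.4% of all tested probe sets), among them AstC (0.53), Ms (0.42) and Burs (0.32). Lower were 2 (beside 29.7%), CCHa2 (-0.36) and Proc (-0.26, named after its value was seen). These genes and the members were measured on the same arrays.

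**Figure D5:**
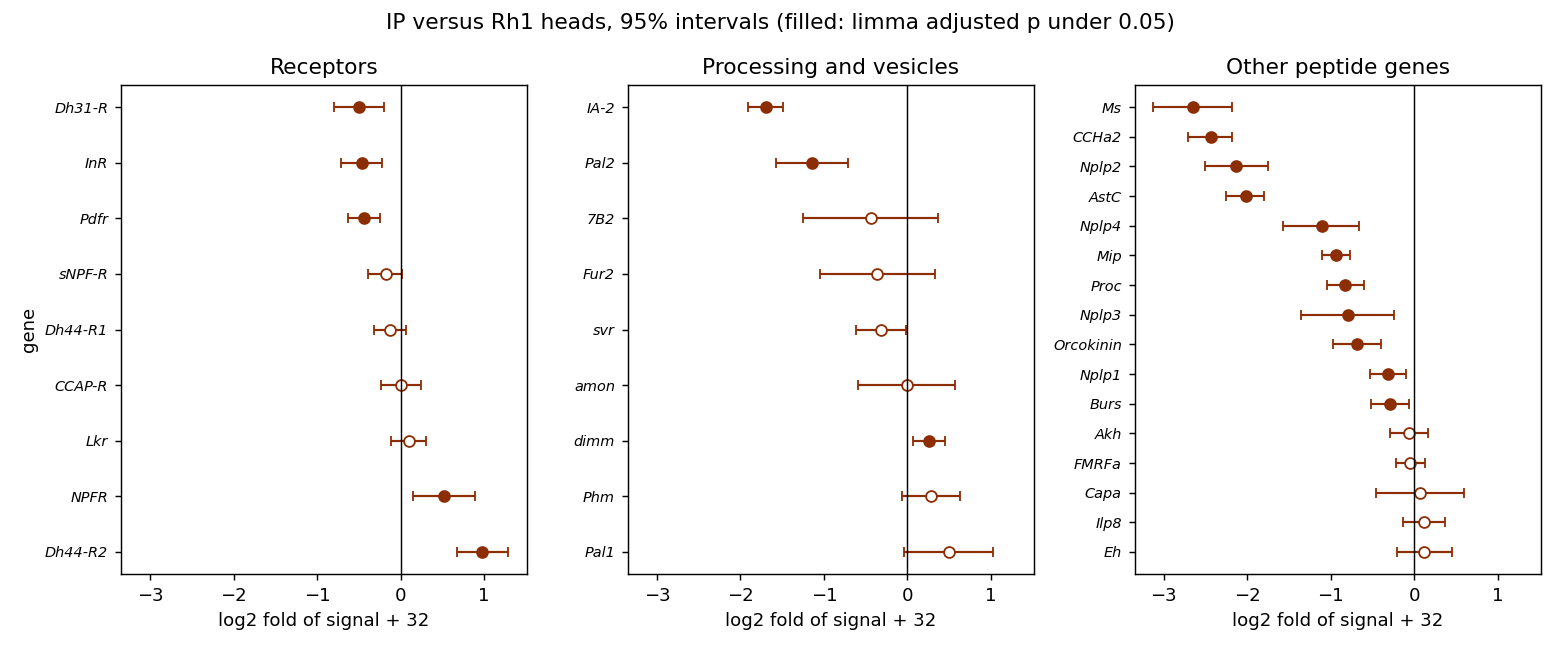
Log2 differences of signal + 32 in IP minus Rh1 heads for the tested receptor genes, genes of peptide processing and vesicles, and other peptide genes, 1 panel each, with 95% intervals from limma as horizontal bars and filled points at a limma adjusted p under 0.05. Receptors lie on both sides of 0, from -0.50 for Dh31-R to 0.98 for Dh44-R2, while all called other peptide genes lie below 0, down to -2.65 for Ms.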

How the data were processed

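The values the authors deposited, 1 for each probe set in each sample, were treated as linear array intensities. Per the labels, whole-head RNA came from about 100 frozen heads and IP from about 200 heads fixed in 1% formaldehyde for 30 min. How probe sets were summarised and scaled upstream is not stated in the labels. All columns of the table were matched to samples by name. IP replicate numbers follow accession order and pair nothing.

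The 2% trimmed means of the arrays were 310.2 to 373.4, over the 5% tolerance, so arrays were scaled to a common trimmed mean, then log2(signal + 32) was taken. The 44 control probe sets were left out of tests. Of 13966 others, 12443 had 1 listed gene, 327 several and 1196 none listed. Probe sets with a mean log2 value at or above the 30th percentile were tested (9776, with 9 of 10 members). Each comparison was fitted on its own arrays with limma 3.58.1 under R 4.3.3 (lmFit, eBayes with trend, two-sided) and Benjamini-Hochberg adjustment over all tested. The fit was tested on simulated data. Of genes with several probe sets the brightest stands for the gene. Precision is limited by how few arrays there are.

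The members, gene lists and tests were chosen with earlier results of these data known. Besides members and their receptors, the named genes are the up to 4 with the largest called difference per list and comparison, the 2 genes most correlated with each of the 4 brightest members in heads, and trp, Gad1 and Prm. A gene named outside this rule is marked as named after its value was seen. CrzR and ETHR (receptors), Fur1 and Cadps (processing) and 13 other peptide genes were not matched and not analysed here. The median IP minus Rh1 head log2 differences of the remaining marker lists were -0.74 (pan-neuronal), -0.55 (glia), -2.56 (muscle), -2.23 (fat body) and 2.40 (photoreceptor). Higher in IP were 1 of 6 tested pan-neuronal markers, 2 of 7 of glia and 1 of 7 of fat body (beside 21.8% of all tested probe sets). Lower were 2, 4 and 6 in the same order (beside 25.6%). Alternatives changed the pseudocount, the filter, the scaling, the arrays in the fit, the eBayes trend, array weights or a replicate block. No sequence or coordinate is printed, since no sequence of these genes was used here.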

Additional observations from a re-analysis of the deposited data

Results flagged for a closer look

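Of 30 groups of arrays tested for a sample apart from the rest (10 members in 3 groups), 1 stood out, and chance alone flags about 1 in 20. The ETH signal of Rh1 head replicate 2 was 169, while the other 3 Rh1 head arrays all rounded to 189. The gap took a share of 0.996 of the whole range of the group, against a range that was narrow for the other 3 arrays. Without that array the log2 difference of ETH between IP and Rh1 heads was -0.01 in place of 0.02, and neither passed.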

How the results depend on the processing

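The values of Dh31, sNPF, Ilp2, NPF and Dh44 in IP against Rh1 heads kept direction and call under every alternative that tested them. The member log2 differences kept direction and side of the threshold in 165 of 178 alternative values for IP against Rh1 heads, 186 of 196 for Rh1 heads against CS heads and 183 of 196 for IP against CS heads. Array weights gave 6969 called probe sets for IP against Rh1 heads in place of 4630, and a call for Pdf (-0.25) and Lk (-0.21). A fit of all arrays gave Pdf adjusted p = 0.0226 there. For Rh1 heads against CS heads that fit gave 3013 called probe sets in place of 5293, with 2 members lower and 2 higher, and Dh31, Dh44, Lk and ETH no longer passed (adjusted p from 0.0639 to 0.206). For IP against CS heads Crz and ETH also passed without scaling (-0.37 and -0.18) and with array weights (-0.47 and -0.18), and Crz with the fit of all arrays (adjusted p = 0.0495). Leaving out 1 array moved the number of members higher in IP than in Rh1 heads between 0 and 1. The sign of uncalled values turned for ETH without scaling (-0.03), with cyclic loess (0), with array weights (-0.03) and without IP replicates 2 and 4 (-0.09), and for Crz without those arrays (-0.05). With 1 array left out ETH ran from -0.04 to 0.08 and Lk from -0.14 to 0.01. The causes were not tested. With the labelled number as a replicate block (heads 1 to 4) 4699 probe sets were called in Rh1 heads against CS heads and no member's call changed. Same-numbered heads deviated together with r from -0.08 to 0.06, no sample matched its own number best, and the numbers pair nothing. The mean over a gene's probe sets equals the value given, since each member had 1. With no filter CCAP had -0.07 in IP against Rh1 heads (limma adjusted p = 0.382). Dim signal limits what can be said of CCAP, the lack of detection calls limits ETH, and the spread of IP limits Crz and Lk.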
